A study of Citrus sinensis with 4 samples.

Results

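The genes described here are 31 gene models of sweet orange whose RNA was higher in the cultivar Bingtangcheng than in the cultivar Dahongtiancheng at both sampled stages. Poly(A) RNA of Citrus sinensis fruit endocarp was sequenced at 50 and at 70 days after full bloom, with 1 library per cultivar and stage, 4 in all. No treatment was applied, and the labels do not say how many fruits or trees went into a library. The members were chosen from the measured values. Raw counts were scaled to a library total of 1000000 (CPM) and 0.5 was added. The lower Bingtangcheng value had to be at least 2 times the higher Dahongtiancheng value and at least 1.5. Of the 28435 gene models named Cs or orange1.1t that were open to this rule, which leaves out Cs1g16150, 31 or 0.109% met it, which is 0.216% of the 14351 that passed its floor. The same rule with the cultivars exchanged was met by 41.

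The endocarp is the inner layer of the citrus fruit wall, and the juice sacs grow from it. In the weeks after bloom these sacs pass from cell division to cell enlargement, and their vacuoles fill with water, sugars and citric acid. Sweet orange cultivars are propagated by grafting and arose largely as bud sports, that is, from branches that carried a somatic mutation, so their genomes are nearly alike. Bingtangcheng is grown as a sweet orange of low acidity, and Dahongtiancheng is the more acid of the pair. The identifiers of the 31 genes are not paired with names or functions in the sources used here, so no role is given for any of them, and the tissue could not be checked against marker genes.

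The libraries held between 14040916 and 16445383 fragments, so that 1 fragment stood for between 0.0608 and 0.0712 CPM. All counts of 0 among the members lay in Dahongtiancheng, where a count of 0 allowed up to 0.185 CPM (3 fragments). The cultivar values chose the members, so they are given as a description, without a test, and the groups of no member overlap by construction. Each group had 1 library, so the spread between fruits or trees is not known. Intervals in parentheses are 95% exact counting intervals of the ratio of 2 libraries and cover counting error only. In RNA of a whole tissue, fewer cells of a type and less RNA per cell cannot be told apart.

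All 31 genes together took a very small part of the RNA. They held 0.0205% of the fragments of Bingtangcheng at 50 days (exact 95% binomial interval 0.0197 to 0.0212) and 0.0211% (0.0204 to 0.0218) at 70 days. In Dahongtiancheng they held 0.00372% (0.00343 to 0.00403) and 0.00286% (0.00261 to 0.00313). A single gene, orange1.1t02290, contributed 355 of the 2872 fragments at 50 days and 672 of the 3469 at 70 days in Bingtangcheng. The median member stood at 4.77 and 5.59 CPM in Bingtangcheng and at 0.615 and 0.247 CPM in Dahongtiancheng. The 31 genes fell into 3 tiers by what was left in Dahongtiancheng. At most 4 fragments were counted in both of its libraries for 12 genes, between 5 and 15 in the higher of them for 8, and more than 15 for 11. These tiers were drawn after the values were seen.

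**Figure D1:**
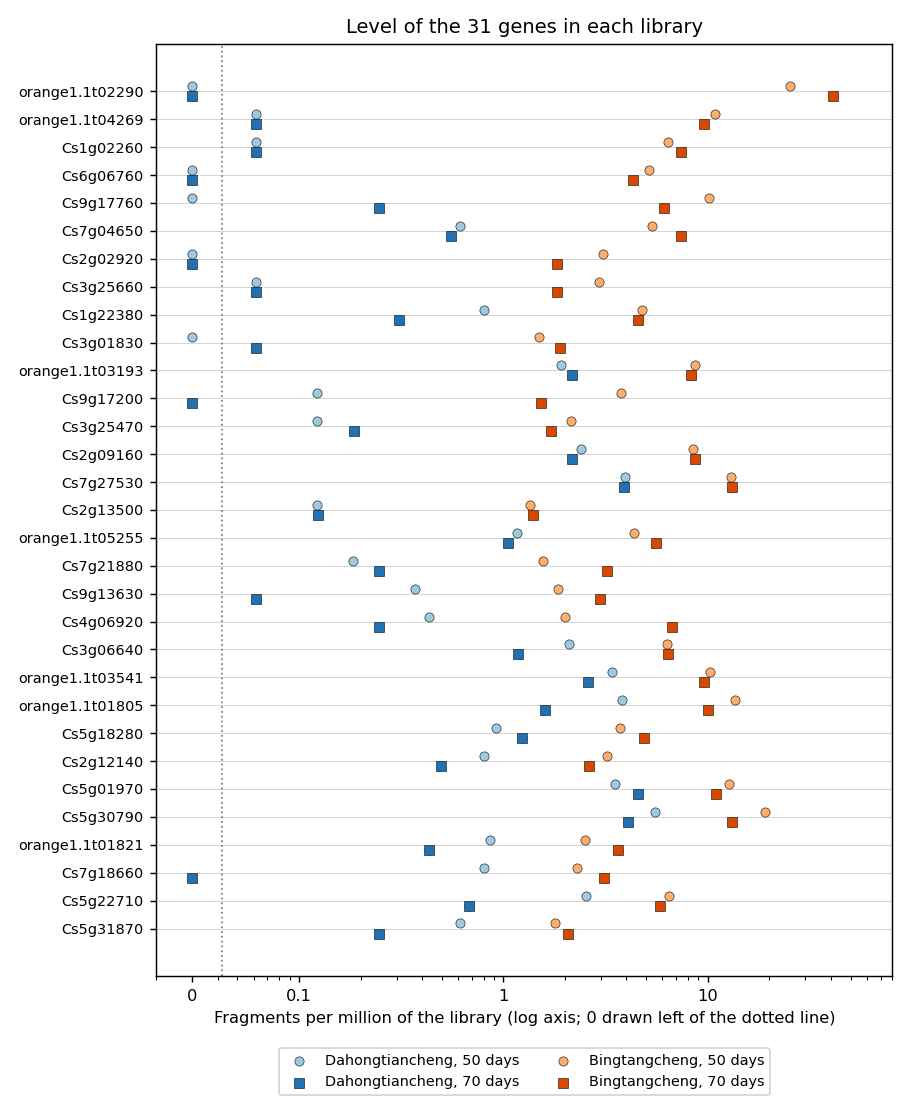
Level of each of the 31 genes in the 4 libraries, in CPM on a log axis, with genes ordered by the ratio of the selection rule and 1 symbol per library. The gap between the cultivars is widest in the top rows, where 3 genes have 0 fragments in both Dahongtiancheng libraries, and closes downward to a ratio of 2.04.

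The first tier held genes that were nearly without fragments in Dahongtiancheng. Summed over its 12 genes, there were 29 fragments in the Dahongtiancheng libraries and 2384 in those of Bingtangcheng. The widest difference was that of orange1.1t02290, a short model of 417 bases on unplaced sequence (34428020 to 34428436, minus strand). It had 0 fragments in both Dahongtiancheng libraries, 355 in Bingtangcheng at 50 days and 672 at 70 days, or 25.3 and 40.9 CPM. Set against 3 fragments in the Dahongtiancheng library, the level in Bingtangcheng was higher by at least 137-fold at 50 days and at least 221-fold at 70 days, and the counting intervals start at 111 and 179. Here and below, a fold set against 3 fragments takes the Bingtangcheng count as exact, whereas the interval includes the counting error of both, so it reaches to lower folds. The next highest CPM in Bingtangcheng was 19.1 at 50 days, in Cs5g30790, and 13.1 at 70 days, in both Cs5g30790 and Cs7g27530.

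A further pair of genes had 0 fragments in both Dahongtiancheng libraries. Cs6g06760 (chromosome 6, 8718238 to 8719629, plus strand) had 72 fragments at 50 days and 71 at 70 days in Bingtangcheng, at least 27.8-fold and 23.3-fold higher. For Cs2g02920 (chromosome 2, 1223764 to 1224715, minus strand) the Bingtangcheng counts were 43 and 30, at least 16.6-fold and 9.85-fold higher. The counting intervals of Cs6g06760 start at 22.0 and 18.5, and those of Cs2g02920 at 12.9 and 7.53. Both genes were thus several-fold above what a count of 0 allows at each stage, at levels of 1.82 to 5.13 CPM.

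In 3 genes a single fragment was seen in each Dahongtiancheng library. Against it, orange1.1t04269 (unplaced, 66861181 to 66863079, plus strand) had 153 fragments at 50 days and 158 at 70 days in Bingtangcheng. Its ratios were 177 (31.3 to 7040) and 156 (27.5 to 6183). Cs1g02260 (chromosome 1, 1582667 to 1586073, plus strand) had 90 and 121 fragments, with ratios of 104 (18.2 to 4160) and 119 (21.0 to 4744). For these genes the lower end of the interval is the informative part, because the upper end rests on 1 fragment. Cs3g25660 (chromosome 3, 27207561 to 27209960, plus strand) had 41 and 30 fragments, with ratios of 47.5 (8.05 to 1920) and 29.5 (4.91 to 1205). The scaled counts that the authors deposited beside the raw ones gave some of these single fragments less than their full weight. Relative to the usual factor of the library, the fragment of orange1.1t04269 counted 0.444 at 50 days and 0.112 at 70 days, and that of Cs3g25660 counted 0.020 and 0.177. The fragment of Cs1g02260 had its full weight at both stages, and the Bingtangcheng counts of all 3 genes were within 2% of theirs.

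The other 6 genes of the tier were seen at 0 to 4 fragments in Dahongtiancheng. Cs9g17760 (chromosome 9, 16965791 to 16971987, minus strand) had 0 and 4 fragments there at 50 and 70 days, against 143 and 100 in Bingtangcheng. At 50 days the difference was at least 55.2-fold, with an interval that starts at 44.3, and the level was 24.6-fold higher (9.32 to 92.1) at 70 days. Also on chromosome 9, Cs9g17200 (16556553 to 16559156, plus strand) had 2 and 0 fragments against 53 and 25. Its ratio was 30.7 (8.08 to 260) at 50 days, and the 70-day difference was at least 8.21-fold, with an interval that starts at 6.19. Both genes of chromosome 9 had a lower CPM at 70 than at 50 days in Bingtangcheng, 6.08 after 10.2 for Cs9g17760 and 1.52 after 3.77 for Cs9g17200.

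The remaining 4 genes of this tier had between 19 and 53 fragments in each Bingtangcheng library. Cs3g01830 (chromosome 3, 1096966 to 1110035, plus strand) had 0 and 1 fragments in Dahongtiancheng and 21 and 31 in Bingtangcheng, at least 8.10-fold and then 30.5-fold (5.09 to 1244) higher. Cs3g25470 (chromosome 3, 27085570 to 27088782, minus strand) had 2 and 3 fragments against 30 and 28, with ratios of 17.4 (4.41 to 150) and 9.19 (2.84 to 47.2). Cs2g13500 (chromosome 2, 10164497 to 10166944, minus strand) had 2 in both libraries against 19 and 23, the fewest Bingtangcheng fragments of any member, with ratios of 11.0 (2.65 to 97.4) and 11.3 (2.80 to 99.1). The levels of these 3 genes in Bingtangcheng lay between 1.35 and 2.14 CPM. Cs7g21880 (chromosome 7, 19308150 to 19310619, plus strand) had 3 and 4 fragments against 22 and 53, with ratios of 8.49 (2.55 to 44.3) and 13.1 (4.81 to 49.6).

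In the second tier the higher Dahongtiancheng library had between 5 and 15 fragments. Its 8 genes summed to 124 fragments in Dahongtiancheng and 876 in Bingtangcheng. Cs7g04650 (chromosome 7, 2367424 to 2370635, plus strand) had the largest ratio of the rule in this tier, 5.24. It had 10 and 9 fragments in Dahongtiancheng against 75 and 121 in Bingtangcheng, 8.68-fold (4.47 to 18.8) higher at 50 days and 13.2-fold (6.75 to 29.7) at 70 days. Cs1g22380 (chromosome 1, 25065267 to 25069988, plus strand) followed with 13 and 5 fragments against 67 and 75, 5.97-fold (3.26 to 11.8) and 14.8-fold (6.06 to 46.8) higher. In these 2 genes the Dahongtiancheng counts are large enough for both ends of the interval to be read.

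Like Cs7g04650 and Cs1g22380, the other 6 genes of the second tier had their narrower difference at 50 days. Cs4g06920 (chromosome 4, 4376317 to 4381665, plus strand) had 7 and 4 fragments in Dahongtiancheng against 28 and 110, 4.63-fold (1.98 to 12.6) and 27.1-fold (10.3 to 101) higher. Cs9g13630 (chromosome 9, 13047267 to 13047890, plus strand) had 6 and 1 against 26 and 49, 5.02-fold (2.02 to 14.9) and 48.3-fold (8.26 to 1944) higher. Cs7g18660 (chromosome 7, 14489822 to 14491650, minus strand) had 13 and 0 against 32 and 51, 2.85-fold (1.46 to 5.92) and then at least 16.7-fold higher, with an interval that starts at 13.1. In all 3 genes the Dahongtiancheng count was lower, and the Bingtangcheng count higher, at 70 than at 50 days. Cs2g12140 (chromosome 2) had 13 and 8 fragments against 45 and 43, orange1.1t01821 (unplaced) 14 and 7 against 35 and 60, and Cs5g31870 (chromosome 5) 10 and 4 against 25 and 34. Their ratios were between 2.89 and 4.01 at 50 days and between 5.29 and 8.44 at 70 days.

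The 11 genes of the third tier had between 11 and 90 fragments in each Dahongtiancheng library. Summed over the tier there were 915 fragments in Dahongtiancheng and 3081 in Bingtangcheng, and the ratios of the rule ran from 2.10 to 3.30. The most fragments were those of Cs5g30790 (chromosome 5, 32613489 to 32614588, minus strand), with 90 and 66 fragments in Dahongtiancheng against 268 and 215 in Bingtangcheng. It was 3.45-fold (2.71 to 4.43) higher at 50 days and 3.21-fold (2.42 to 4.29) at 70 days. Cs7g27530 (chromosome 7, 28306625 to 28309118, plus strand) had 64 and 63 fragments against 183 and 215, 3.31-fold (2.48 to 4.47) and 3.36-fold (2.53 to 4.52) higher. By library totals its level was 3.94 and 3.89 CPM in Dahongtiancheng and 13.0 and 13.1 CPM in Bingtangcheng. After normalization the 70-day level was 1.14-fold that at 50 days (0.792 to 1.64) in Dahongtiancheng and 1.22-fold (1.0 to 1.5) in Bingtangcheng.

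Several genes of this tier repeated nearly the same ratio at both stages. Cs2g09160 (chromosome 2, 6364509 to 6366606, plus strand) had 39 and 35 fragments against 119 and 143, 3.53-fold (2.44 to 5.21) and 4.02-fold (2.76 to 6.0) higher. For orange1.1t03193 (unplaced, 49457008 to 49466276, minus strand), the longest model at 8468 bases, the counts were 31 and 35 against 121 and 136, 4.52-fold (3.02 to 6.94) and 3.83-fold (2.62 to 5.72) higher. Cs5g18280 (chromosome 5, 18609980 to 18616088, minus strand) had 15 and 20 fragments against 52 and 80, with ratios of 4.01 (2.23 to 7.68) and 3.94 (2.39 to 6.79). In orange1.1t03541 (unplaced, 54155150 to 54157395, plus strand) the counts were 55 and 42 against 144 and 157, with ratios of 3.03 (2.21 to 4.21) and 3.68 (2.60 to 5.31). The ratios of these 4 genes at 50 and 70 days lay within each other's counting intervals.

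Others were less even. The Dahongtiancheng count of orange1.1t01805 (unplaced, 28368231 to 28375644, minus strand) was 62 at 50 days and 26 at 70 days, against 191 and 165 in Bingtangcheng, with ratios of 3.57 (2.67 to 4.83) and 6.25 (4.12 to 9.85). Cs3g06640 (chromosome 3, 9238248 to 9244068, minus strand) had 34 and 19 against 89 and 105, with ratios of 3.03 (2.02 to 4.64) and 5.44 (3.32 to 9.40). In Cs5g22710 (chromosome 5, 25391594 to 25395223, plus strand) the counts were 41 and 11 against 91 and 96, with ratios of 2.57 (1.76 to 3.81) and 8.59 (4.59 to 17.8). These 3 genes had a wider cultivar difference at 70 days, through a lower Dahongtiancheng count. Cs5g01970 (chromosome 5, 790819 to 794461, minus strand) went the other way, with 57 and 74 against 178 and 180 fragments and ratios of 3.62 (2.67 to 4.96) and 2.40 (1.82 to 3.18). The last gene, orange1.1t05255 (unplaced, 85007971 to 85010378, minus strand), had 19 and 17 fragments against 61 and 92.

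At the threshold the choice of members was a matter of a few fragments. Just inside it were Cs7g18660, Cs5g22710 and Cs5g31870, with ratios of the rule of 2.14, 2.10 and 2.04. Just outside were Cs2g19830, with 6 and 5 fragments in Dahongtiancheng against 17 and 27 and a ratio of 1.97, and Cs7g02360, with 40 and 71 against 127 and 280 and a ratio of 1.95. Beside them Cs5g03910 had 1 and 31 against 59 and 78 and a ratio of 1.95. Of the 31 ratios 16 were under 3, 9 were between 3 and 5 and 6 were over 5. The median was 2.97, and it was 2.93 for the 41 genes of the exchanged rule, of which 17 had at most 4 fragments in both Bingtangcheng libraries.

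A rule of size in each pair of libraries asked for at least 10 fragments and 1 CPM in either library, a 2-fold ratio by normalized CPM after a prior count of 2 had been added, and a 99% counting interval that excluded 1. All 31 genes met it at 50 days and at 70 days. Of all gene models tested, 3.62% were higher in Bingtangcheng at 50 days, 5.64% at 70 days and 0.632% at both. The same contrast chose the members, so nothing is read from their count.

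Levels of different genes were compared per kilobase of model length. In Bingtangcheng orange1.1t02290 reached 60.6 CPM per kilobase at 50 days and 98.0 at 70 days. These levels were above those of 86.1% and 92.5% of the gene models with at least 10 fragments in the library. Next came Cs5g30790 with 19.3 and 13.2, near the middle of the expressed genes, and then orange1.1t03541 with 7.48 and 6.96, Cs7g27530 with 6.63 and 6.65, and orange1.1t04269 with 5.74 and 5.06. The order among these last 3 is close, and with 1 library each it has no spread between samples behind it. Other than orange1.1t02290 and Cs5g30790, all 29 members lay at or below the percentile 30.2 at 50 days and 33.6 at 70 days. The median percentile of the 31 genes was 12.0 at 50 days and 16.3 at 70 days. The floor of the rule sets a lower bound on these levels and no upper one. Model lengths ran from 417 to 8468 bases with a median of 1899, against 1689 for all 14351 gene models past that floor.

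**Figure D2:**
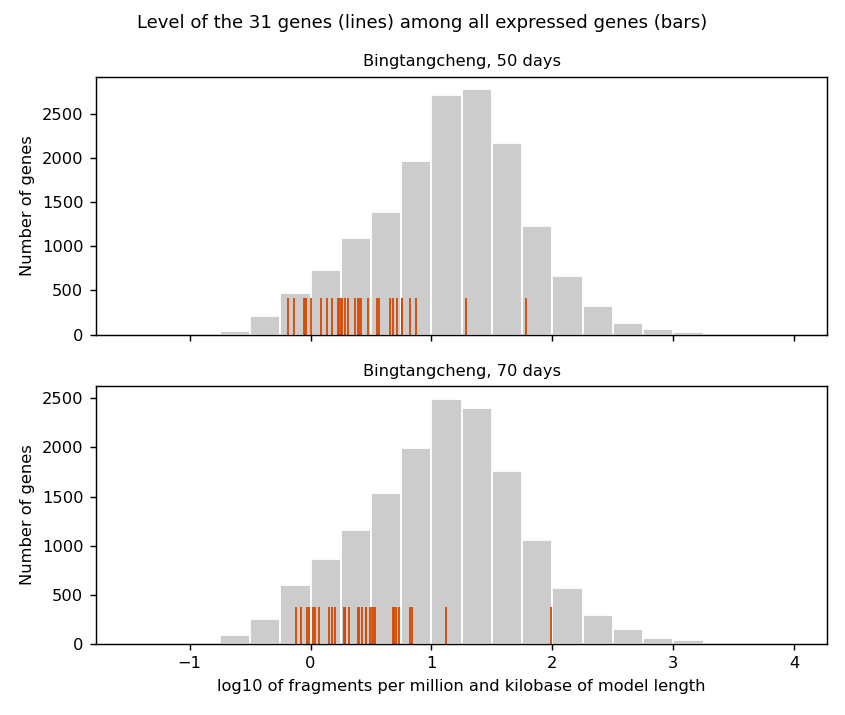
Number of gene models by level in the Bingtangcheng libraries, as log10 of CPM per kilobase, for models with at least 10 fragments (bars) and for the 31 genes (vertical lines, whose height has no meaning). The lines crowd in the lower part of the distribution, except for Cs5g30790 near its middle and orange1.1t02290 toward its upper end.

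The change from 50 to 70 days was not what the members were chosen on, although the floor and the ratio both act on the lower Bingtangcheng value and so disfavour genes that nearly vanish at either stage. In Bingtangcheng 2 of the 31 genes were higher at 70 days by the rule of size and 0 were lower. Among all gene models tested 7.94% were higher and 13.2% lower, and among the gene models past the floor of the selection 6.83% and 9.19%. Scaled by library totals in place of normalization factors, 1 member was higher, Cs4g06920, and 1 was lower, Cs9g17200. With that scaling 872 of all gene models were higher and 2997 lower, against 1287 and 2133 after normalization. The genes that were higher after normalization were Cs4g06920, with 28 fragments at 50 days and 110 at 70 days, a 4.09-fold normalized difference (2.68 to 6.44), and Cs7g21880, with 22 and 53, a 2.51-fold difference (1.5 to 4.33). Close to the 2-fold line lay orange1.1t02290 at 1.97-fold (1.73 to 2.25) and Cs9g13630 at 1.96-fold (1.2 to 3.29). The lowest ratio was that of Cs9g17200, whose level at 70 days was 0.491 of that at 50 days (0.292 to 0.804). With the prior count its log2 ratio was -0.97, just short of the 2-fold line.

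In Bingtangcheng the share of members that were steady between the stages was near that of all gene models past the floor. The log2 ratio lay within 0.5 of 0 for 20 of the 31 genes or 64.5%, against 60.9%. Among the 20 were Cs6g06760 (1.03-fold, 0.729 to 1.45), orange1.1t04269 (1.07-fold, 0.855 to 1.35) and Cs7g27530 (1.22-fold). The median log2 ratio of the 31 genes was 0.29, against 0.02 for the gene models past the floor. It was above 0 for 23 genes and below 0 for 8. Of the 14351 gene models past the floor, 7380 were above 0 and 6971 below. Where only the library totals were used for scaling, the median of all tested gene models moved from -0.01 to -0.30. That of the 31 genes moved to 0.00, with 16 of 31 above 0. How many of all gene models were above 0 with that scaling was not counted. A change of scaling moves genes nearly alike, except at low counts. The distance between the medians of the members and of all tested gene models therefore stayed at 0.30 nearly by construction.

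In Dahongtiancheng only 11 of the 31 genes had enough fragments to be compared between the stages, those of the third tier. The rule of size found 0 higher and 1 lower at 70 days, against 9.57% higher and 12.6% lower among all gene models tested. The gene was Cs5g22710, with 41 fragments at 50 days and 11 at 70 days, a level at 70 days that was 0.310 of that at 50 days (0.144 to 0.615). In Bingtangcheng its counts were 91 and 96, a 1.1-fold ratio (0.816 to 1.48). The next lowest was orange1.1t01805 at 0.485 (0.295 to 0.779), with a log2 ratio after the prior count of -0.99. By library totals it met the rule too, so that 2 members were lower. Of all gene models 2607 were lower with that scaling, against 2046 after normalization. Cs5g01970 was the only 1 of the 11 whose counting interval lay wholly above 1, at 1.5 (1.05 to 2.16). The log2 ratios of the 11 genes ran from -1.53 to 0.57.

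**Figure D3:**
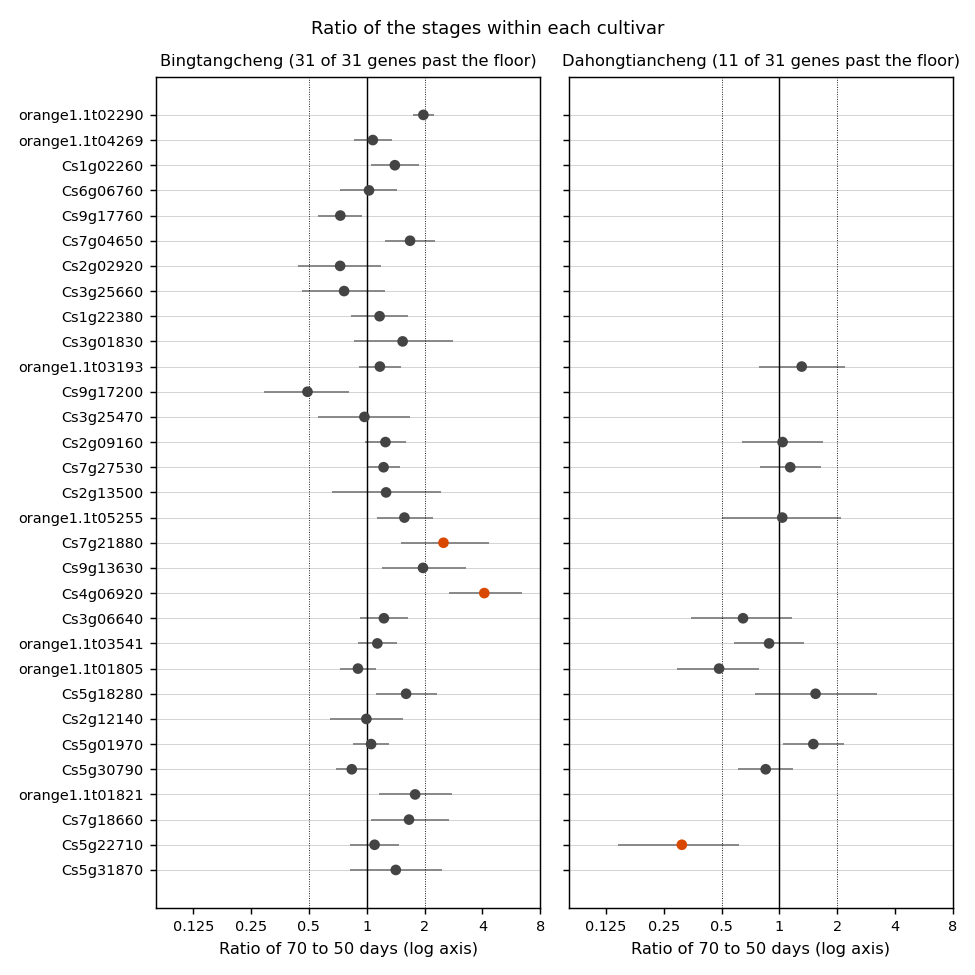
Ratio of the level at 70 days to that at 50 days in each cultivar, on a log axis after normalization, with 95% counting intervals as lines, 2-fold marked by dotted lines and coloured points for genes that met the rule of size. The 31 points of Bingtangcheng lie between 0.491 and 4.09, and the 11 genes that could be compared in Dahongtiancheng include Cs5g22710 at 0.310.

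An additive model of stage and cultivar over the 4 libraries tested the stage difference, with the cultivars standing in for replicates. It leaves 1 residual degree of freedom per gene. edgeR's quasi-likelihood test with Benjamini-Hochberg adjustment over 16494 gene models found 3.47% higher and 5.24% lower at 70 days at an adjusted p of 0.05, and 0 of the 31 members in either direction. For 20 of the 31 the Dahongtiancheng counts were too low to compare the stages, so these genes entered the fit mainly through Bingtangcheng, and their lack of a call says little. The lowest adjusted p of a member in this edgeR test was 0.196, for orange1.1t02290, with a log2 difference of 0.97 that rests on Bingtangcheng alone. An unadjusted p under 0.05 in the edgeR test was reached by 1 member. The share of all gene models that reached it was not counted, so nothing is read from this. DESeq2 called 1934 of 16782 gene models and 0 members, and 0 members had an unadjusted p under 0.05 with it. A p that misses the threshold does not show that the stages were alike.

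The 31 genes were scattered over the genome. They lay on 8 of the 9 numbered chromosomes, 24 in all, and 7 were on unplaced sequence. Chromosome 5 held 5, chromosomes 2, 3 and 7 held 4 each and chromosome 8 held 0, where 1010 gene models were past the floor. As a share of the gene models past the floor, members made up from 0.0826% on chromosome 6 to 0.338% on chromosome 9, and 0.363% on unplaced sequence. No member was next to another member, and 0 had another member within 50 kb. Members made up 0.109% of the gene models open to the rule. Adjacent members would be rare among so few genes picked without regard to position, so nothing is read from this. The closest pair was Cs3g25470 and Cs3g25660, 119 kb apart on chromosome 3, followed on the numbered chromosomes by Cs9g17200 and Cs9g17760, 407 kb apart. Plus and minus strands carried 16 and 15 members.

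The gene models beside the members were examined next. Their own values did not enter the rule for the members, but a model that overlaps or adjoins a member may share its transcript. Most of them were Cs models, which were open to the rule and did not meet it. Only Citrus_newGene models lay outside the rule. For each of the 24 placed members the nearest model on either side, by start position, that had enough fragments in both cultivar pairs was taken, which gave 48 models at a median distance of 8.89 kb. At 50 days 8 of the 48 or 16.7% were higher in Bingtangcheng by the rule of size, against 2.72% of the 15342 gene models compared at both stages, and 0 were lower, against 2.41%. At 70 days 7 or 14.6% were higher, against 5.38%, and 2 were lower, or 4.17% against 5.99%. At both stages 3 were higher, 6.25% against 0.632%, and at either stage 12 or 25%, against 7.46%. Without Citrus_newGene models, 6 of 44 or 13.6% were higher at 50 days, 5 or 11.4% at 70 days and 1 or 2.27% at both. The neighbours had a lower median level than all models compared, 19.5 against 25.9 CPM, and the part of that difference in these shares was not tested. The second models out included 4 higher at 50 days and 3 at 70 days of 48, and the third models 1 and 6. Beside the genes of the exchanged rule, 6 of 64 neighbours were lower in Bingtangcheng at 50 days and 6 at 70 days, 9.38% each, and 2 were higher at each stage. The choice to look at neighbours was made after the data were seen, and no test of these counts was made.

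Of the 3 neighbours that were higher at both stages, 2 were models named Citrus_newGene. This class lies outside the rule, and 5 of its 600 models, or 0.833%, would have met the thresholds. Citrus_newGene_1269 ended 561 bases before Cs6g06760 on the same strand, and it had 0 fragments in both Dahongtiancheng libraries and 21 and 24 in Bingtangcheng, the pattern of Cs6g06760 itself. Citrus_newGene_549 overlapped Cs3g01830 on the same strand, with 0 and 1 fragments in Dahongtiancheng and 16 and 19 in Bingtangcheng. Whether such a pair is 1 transcript or 2 was not tested, and fragments of Cs3g01830 and of the model that overlaps it cannot be told apart with certainty. The third was Cs5g18300, 31.5 kb from Cs5g18280, with 15 and 0 fragments in Dahongtiancheng and 83 and 25 in Bingtangcheng.

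The neighbours that were higher at a single stage included both sides of Cs9g13630. Cs9g13620, 33.8 kb away, had 171 and 503 fragments in Dahongtiancheng and 823 and 349 in Bingtangcheng, a log2 ratio of 2.41 at 50 days and of -0.52 at 70 days. On the other side Cs9g13660 had 7 and 17 against 22 and 9. Neither kept its direction at 70 days, whereas Cs9g13630 was higher at both stages by choice. Next to Cs9g17760, Cs9g17780 had 262 and 95 fragments against 451 and 303, log2 ratios of 0.93 and 1.66. Next to Cs7g04650, Cs7g04660 had 26 and 5 against 41 and 30, log2 ratios of 0.76 and 2.21. Both were above 0 at each stage and met the rule at 70 days.

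**Figure D4:**
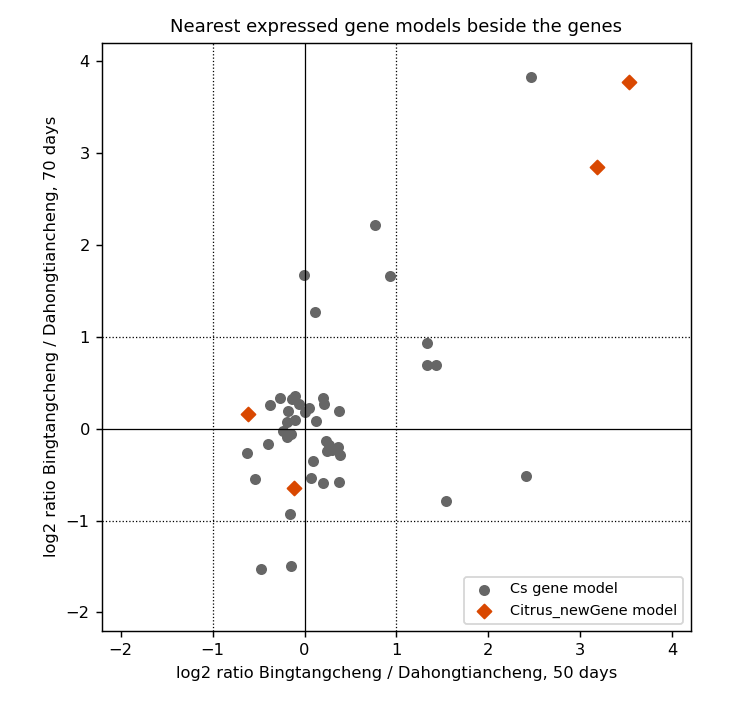
Log2 ratio of Bingtangcheng to Dahongtiancheng at 50 days (horizontal) and 70 days (vertical) for the 48 expressed gene models nearest to the 24 placed members, with dotted lines at 2-fold. Most points lie near 0, and the 3 that are higher in Bingtangcheng at both stages, 2 of them Citrus_newGene models, stand at the upper right.

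The span of a member overlapped another gene model in 3 cases. Besides Cs3g01830, Cs5g01970 lay inside the span of Cs5g02000, a model on the other strand with 1881 and 8226 fragments in Dahongtiancheng and 1826 and 4833 in Bingtangcheng. In Dahongtiancheng the count of Cs5g01970 was higher at 70 days as well, 74 after 57, and in Bingtangcheng it was 178 and 180. Whether strand was used in counting was not stated, so the values of Cs5g01970 are uncertain. Cs9g17760 lay inside the span of Cs9g17750 on the same strand, which had 211 and 133 fragments in Dahongtiancheng and 143 and 118 in Bingtangcheng. That model was therefore not higher in Bingtangcheng, while Cs9g17760 had 0 and 4 fragments against 143 and 100.

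The deposited FPKM held the same order of the cultivars. The lower FPKM of Bingtangcheng was at least 2 times the higher FPKM of Dahongtiancheng for all 31 genes. FPKM describes the same libraries whose CPM chose the members by such a ratio. The order was thus nearly fixed in advance, and nothing is read from it. For orange1.1t02290 the deposited FPKM values were 0 and 0 in Dahongtiancheng and 105 and 207 in Bingtangcheng, for Cs5g30790 6.03 and 5.20 against 19.8 and 16.8, and for Cs7g27530 1.88 and 2.33 against 5.91 and 7.38. With 0.5 added to FPKM, as the rule adds it to CPM, 19 of the 31 stayed members. Of the 114 member values with fragments, 17 in 10 genes had a scaled count more than 1% off the factor of their library.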

How the data were processed

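RNA of 4 sweet orange endocarp libraries, 1 per cultivar and stage, was compared; groups were taken from the sample titles. Per the file headers, the deposited tables hold 3 values for a gene model, a raw count of fragments, a normalized count and an FPKM. The raw counts are whole numbers. The normalized count is a scaled signal that the authors made, for most genes the raw count times 1 factor per library. The way the authors made FPKM, like the aligner, counter, strand setting and genome build, was not stated in the sources used here. A header line repeated 1 time inside each file was dropped. The identifiers matched 0 of the 29331 genes of the reference table for another assembly, so gene lists planned on descriptions could not be filled and no sequence is shown. 0 other columns of per-sample values were left aside.

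The members and every grouping were chosen with earlier results of these data known. The selection rule used CPM from library sums. Genes named were those with the largest ratio, the highest level, no fragments in Dahongtiancheng, the threshold, the largest stage ratios and an overlapping model, which with the tiers covers all 31. Stage ratios and the rule of size used TMM factors (0.910 to 1.11, edgeR 4.0.16 in R 4.3.3), a prior count of 2 and exact conditional (Clopper-Pearson) counting intervals (scipy 1.17.1). edgeR's quasi-likelihood fit had a common dispersion of 0.0754 and was followed by Benjamini-Hochberg adjustment; DESeq2 1.42.0 was an alternative. p-values measure only the spread between these libraries. No molecular identifiers are described, so intervals cover counting error only. The rule of size and the additive fit were run on simulated data with 200 genes changed between the stages. The rule that chose the members was not tested in this way.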

Additional observations from a re-analysis of the deposited data

Results flagged for a closer look

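After normalization the change from 50 to 70 days had opposite signs in the cultivars in 2 members. The changes had to differ by at least 2-fold, with a 99% counting interval of the log2 difference that excluded 0. How many of all gene models would meet this was not counted. The difference was not tested against a spread between samples. For Cs4g06920 the log2 change in Bingtangcheng minus that in Dahongtiancheng was 2.54, from 28 to 110 fragments in Bingtangcheng and from 7 to 4 in Dahongtiancheng. The Dahongtiancheng counts were too low for a stage comparison by the rule of size, so the direction there is uncertain. For Cs5g22710 it was 1.78, from 91 to 96 and from 41 to 11 fragments. By library totals this gene was lower at 70 days in Bingtangcheng too, 5.84 after 6.48 CPM, so its opposite sign depends on the normalization.

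Gene models named Citrus_newGene were not open to the selection rule, and 5 of the 600 would have met its thresholds. Citrus_newGene_43 (chromosome 1) had a ratio of the rule of 33.7, with 4 and 7 fragments in Dahongtiancheng against 630 and 509 in Bingtangcheng. Citrus_newGene_1529 (chromosome 7) had a ratio of 4.13, with 0 and 0 against 22 and 63. Beside the members Cs6g06760 and Cs3g01830 stood Citrus_newGene_1269, with a ratio of 3.92, and Citrus_newGene_549, with a ratio of 2.92. Citrus_newGene_1501 (chromosome 7) had a ratio of 2.03, with 9 and 8 against 36 and 27.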

How the results depend on the processing

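The number of genes depended on the thresholds. A fold of 1.5, 3 or 4 gave 83, 15 or 8 genes higher in Bingtangcheng and 94, 19 or 10 higher in Dahongtiancheng, a floor of 5.5 gave 14 and 19, and the deposited FPKM gave 50 and 69. From the 50-day pair alone there were 526 and 319, and from the 70-day pair alone 718 and 986. With 0.1 or 1 added to CPM, no floor, TMM or median-of-ratios factors the numbers stayed within 1.5 times. TMM factors kept 30 of the 31 and lost Cs5g31870, and the FPKM kept 19. In 5 alternatives of value or scaling 17 genes were kept throughout, and 14 of 155 recomputed ratios fell under 2. None fell below 1, which was nearly certain for genes chosen at a ratio of at least 2. The members higher at 70 days in Bingtangcheng, 2 as reported, were 1 with library sums, a floor of 5 CPM or FPKM and 0 at a fold of 4, and those lower, 0 as reported, were 1 with library sums. The members lower in Dahongtiancheng, 1 as reported, were 2 with library sums or no floor and 0 at a fold of 4 or a floor of 5 CPM. The cause was not tested. The additive fit called 0 members in each version run, with lowest adjusted p between 0.190 and 0.706. Without Citrus_newGene models, a choice made after the data were seen, 1 in place of 3 neighbours was higher at both stages. No paired analysis was possible because the labels number no replicates, beyond the additive fit itself, which has cultivar as a term; leaving out a library leaves no residual degree of freedom. The depth limits what can be said of genes with 0 to 4 fragments in Dahongtiancheng.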
